A study of Mus musculus with 13 samples.

Results

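The genes of the TCA cycle and of pyruvate and malate metabolism were examined in the hearts of C10 G58R mice in which the mitochondrial protease OMA1 was knocked down. Members were taken by symbol from a list of 33 enzymes, kinases, phosphatases and carriers. Of these, 30 had a transcript cluster on the arrays (1 cluster each), out of 19505 named genes in all, and Glud1, Mpc2 and Nnt were not analysed here. All 13 mice carried the knockin G58R mutation of CHCHD10 (C10), a mitochondrial intermembrane space protein, on an OMA1+/- background, so that the controls were also heterozygous for Oma1. The treatments were compared at 33 weeks of age: OMA1 ASO2 (3 hearts), OMA1 ASO1 (5 hearts) and a nontargeting CTRL ASO (5 hearts). The antisense oligonucleotides (ASOs), short modified strands that lead to the loss of the RNA they bind, were injected weekly under the skin at 50 mg/kg. OMA1 ASO1 and OMA1 ASO2 are oligonucleotides against the same RNA. Each heart was hybridized to 1 Clariom S Mouse array. Signals are on a log2 scale, where 1 unit is a factor of 2, and whether a difference comes from fewer cells of a type or from less RNA per cell cannot be told apart in whole hearts. No C10 WT heart was analysed here.

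The heart makes most of its ATP in mitochondria. Pyruvate enters through the mitochondrial pyruvate carrier and is turned into acetyl-CoA by pyruvate dehydrogenase (PDH), which kinases (PDKs) switch off and phosphatases (PDPs) switch on. The TCA cycle oxidizes acetyl-CoA and gives NADH to the respiratory chain. Malic enzymes take carbon out of the cycle by turning malate into pyruvate. ME1 is cytosolic and ME3 mitochondrial, and both make NADPH, which serves antioxidant defense and synthesis, while mitochondrial ME2 works mainly with NAD+.

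The arrays were alike in overall signal, with medians of 5.24 to 5.34. The targeted gene Oma1 was below background on all 8 OMA1 ASO arrays and above it on all 5 CTRL ASO arrays (9.13 to 9.83). Cardiomyocyte markers, as summed signals on the log2 scale, spanned 21.69 to 21.74 in OMA1 ASO2, 21.65 to 21.81 in OMA1 ASO1 and 21.60 to 21.76 in CTRL ASO hearts. All 4 measured adipocyte markers were below background on every array. Of 4 measured skeletal muscle markers, Myh4, Tnnt3 and Myh1 were highest on 1 array, OMA1 ASO1 replicate 1 (Myh4 at 11.95, against at most 5.38 elsewhere). Acta1 was at 13.14 on that array, within its range on the others (11.46 to 14.96). OMA1 ASO1 replicate 5 had the lowest mean correlation with its group (0.974, others 0.984 to 0.990). The sex of the mice is not in the labels. All 3 measured Y-linked genes were above background on 2 OMA1 ASO1 and 2 CTRL ASO arrays and below it on every OMA1 ASO2 array, which left 3 arrays per treatment without Y-linked signal. Macrophage markers (3 measured) summed to 9.55 or more in OMA1 ASO2, 7.76 to 9.87 in OMA1 ASO1 and 8.52 to 9.67 in CTRL ASO hearts, and endothelial markers (4 measured) to 14.84 to 15.40 in OMA1 ASO2, 15.22 to 15.74 in OMA1 ASO1 and 14.86 to 15.50 in CTRL ASO hearts. No marker was called in any comparison, and the part of these cells in the differences between OMA1 ASO2 and OMA1 ASO1 was not tested.

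Across the 30 genes, Me3 alone passed the test (adjusted p under 0.01), and only in the comparisons with OMA1 ASO2. Shares are given for all 22206 clusters and for the 9278 expressed clusters, those above background on all arrays of at least 1 treatment, since 29 of the 30 members were above background on every array. With both oligonucleotides pooled (8 hearts) against CTRL ASO (5 hearts), 0 of 30 were called by limma, against 1.04% of all clusters and 2.30% of expressed clusters. At an unadjusted p under 0.05, 1 was higher and 2 were lower, against 12.8% of all and 21.3% of expressed clusters in either direction. In OMA1 ASO1 hearts 0 of 30 were called (0.919% of all and 2.06% of expressed clusters), with 4 higher and 1 lower at an unadjusted p under 0.05 (12.1% of all and 19.8% of expressed clusters). In OMA1 ASO2 hearts 1 of 30 was called against CTRL ASO (0.761% of all and 1.67% of expressed clusters), with 0 higher and 4 lower at an unadjusted p under 0.05 (11.9% of all and 18.5% of expressed clusters). The same gene was the 1 of 30 called between OMA1 ASO2 and OMA1 ASO1 (0.104% of all and 0.237% of expressed clusters), with 0 higher and 6 lower at an unadjusted p under 0.05 (7.78% of all and 9.47% of expressed clusters). Me3 was named for this difference when the members were chosen, so its call is not a result about the members. It is also among the 6 lower. The comparisons share arrays and are not independent of each other.

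The differences of most members were bounded. The 95% interval of the log2 difference lay within 1 unit of 0 for 28 of 30 genes in the pooled comparison (all but Me3 and Pdk4) and for 28 of 30 with OMA1 ASO1 (all but Pdhx and Pdk4). It did so for 24 of 30 with OMA1 ASO2 against CTRL ASO, where Idh1, Mdh2, Me1, Me3, Pdk4 and Suclg2 reached further. The median log2 difference of the 30 genes was 0.07 in the pooled comparison (0.01 over all clusters), 0.12 with OMA1 ASO1 (0.01 over all clusters) and -0.01 with OMA1 ASO2 (0.01 over all clusters). Between OMA1 ASO2 and OMA1 ASO1 it was -0.17, against -0.01 over all clusters, and 24 of 30 genes (80.0%) had the lower mean in OMA1 ASO2 hearts, against 51.2% of all and 51.5% of expressed clusters. Against CTRL ASO, 15 of 30 were lower with OMA1 ASO2 (50%, against 49% of all and 53.5% of expressed clusters). With OMA1 ASO1, 7 of 30 were lower than with CTRL ASO (23.3%, against 48.2% of all and 53.8% of expressed clusters). The genes were read on the same arrays and are not independent observations. These counts of lower means, and those of the same kind below, were not tested.

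**Figure D1:**
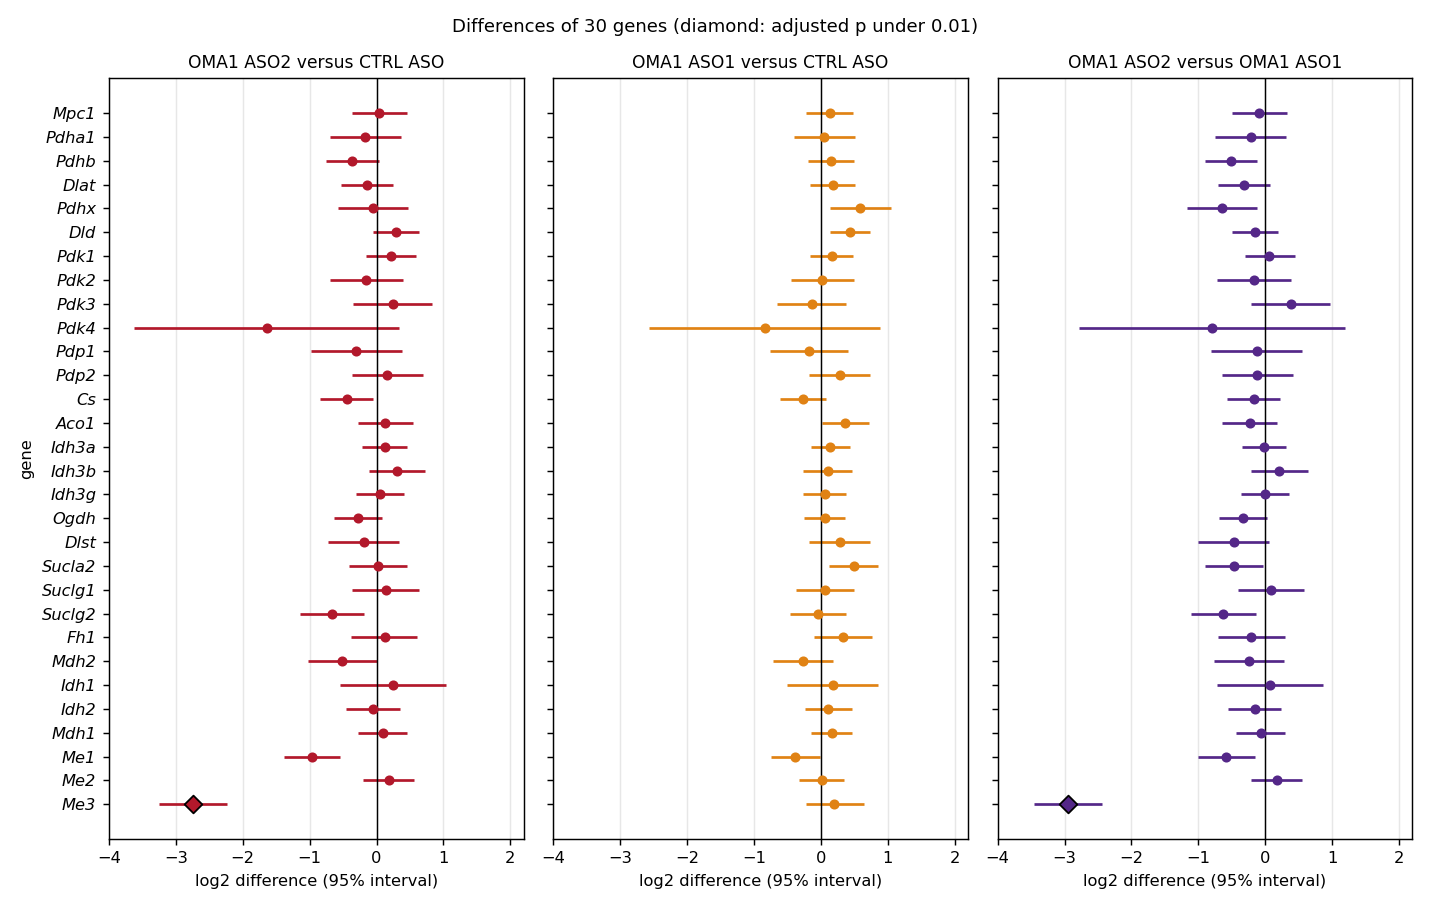
Log2 differences (points) with 95% intervals (lines) of the 30 measured genes, for OMA1 ASO2 against CTRL ASO, OMA1 ASO1 against CTRL ASO and OMA1 ASO2 against OMA1 ASO1. Me3, the bottom row, is the 1 gene drawn as a diamond (adjusted p under 0.01), at -2.74 and -2.95 in the comparisons with OMA1 ASO2, and most other intervals cross 0.

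Me3, the gene of the mitochondrial NADP-dependent malic enzyme, was low in OMA1 ASO2 hearts and not in OMA1 ASO1 hearts. Its log2 signals were 8.74, 7.47 and 8.16 on the OMA1 ASO2 arrays, 11.12, 11.18, 11.07, 11.28 and 10.72 on the OMA1 ASO1 arrays and 10.74, 10.83, 10.72, 11.04 and 11.01 on the CTRL ASO arrays. All 3 OMA1 ASO2 arrays lay below all other 10, but above their own background levels (5.77 to 6.06), so that a lowered signal was still measured. The mean log2 signal in OMA1 ASO2 hearts was 8.13 ± 0.63 (SD, n = 3). It was 11.07 ± 0.21 in OMA1 ASO1 hearts and 10.87 ± 0.15 in CTRL ASO hearts (SD, n = 5 each).

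The Me3 signal was 7.71-fold lower with OMA1 ASO2 than with OMA1 ASO1, a log2 difference of -2.95 (standard error 0.239, 95% interval -3.45 to -2.44, adjusted p = 2.2e-05 by limma). Me3 was named for this difference beforehand, so its p-values describe a gene already picked. Against CTRL ASO the Me3 signal was 6.70-fold lower with OMA1 ASO2 (log2 difference -2.74, standard error 0.239, adjusted p = 3.75e-06 by limma). OMA1 ASO1 hearts differed from CTRL ASO hearts by 0.20 (95% interval -0.23 to 0.64, adjusted p = 0.781 by limma), less than the spread between arrays could resolve. Permuting the Me3 signals over the arrays (exact test, two-sided) gave p = 0.0179 for OMA1 ASO2 against OMA1 ASO1 and the same value for OMA1 ASO2 against CTRL ASO, the smallest p that 3 arrays against 5 allow. For OMA1 ASO1 against CTRL ASO the exact p was 0.111.

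Me3 was not called when both oligonucleotides were pooled. The pooled log2 difference of Me3 was -0.90 with an adjusted p of 0.589 by limma, and the 8 OMA1 ASO arrays spanned 7.47 to 11.28. When the means of both oligonucleotides were given equal weight in the model of 3 treatments, the difference was -1.27 (adjusted p = 0.000814 by limma). The Me3 result did not rest on the arrays with Y-linked signal: on the 9 arrays without it, Me3 spanned 7.47 to 8.74 with OMA1 ASO2, 11.07 to 11.28 with OMA1 ASO1 and 10.72 to 11.01 with CTRL ASO. The log2 difference between OMA1 ASO2 and OMA1 ASO1 was -3.03 on these arrays (adjusted p = 0.000353 by limma). It was -2.94 without OMA1 ASO1 replicate 1 and -3.04 without OMA1 ASO1 replicate 5.

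Me1, the gene of the cytosolic malic enzyme, did not pass the test in any comparison. Its log2 signals were 13.50, 13.30 and 12.79 on the OMA1 ASO2 arrays, 13.76, 13.88, 14.04, 13.51 and 13.74 on the OMA1 ASO1 arrays and 14.25, 13.98, 13.95, 14.29 and 14.33 on the CTRL ASO arrays. The OMA1 ASO2 arrays lay below all others, with the highest of them (13.50) next to the lowest OMA1 ASO1 array (13.51). Of the OMA1 ASO1 arrays, only replicate 3 (14.04) reached the range of the CTRL ASO arrays, and the others lay below it. The log2 difference from CTRL ASO was -0.96 with OMA1 ASO2 (1.95-fold lower, standard error 0.200, adjusted p = 0.0181 by limma) and -0.38 with OMA1 ASO1 (standard error 0.173, adjusted p = 0.396 by limma). OMA1 ASO2 and OMA1 ASO1 differed by -0.59 (95% interval -1.01 to -0.16, adjusted p = 0.420 by limma). Me1 had the smallest p of the members in the pooled comparison, at a log2 difference of -0.60 (adjusted p = 0.136 by limma).

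Me2, the gene of the mainly NAD-linked mitochondrial malic enzyme, had log2 signals of 7.72 to 8.06 with OMA1 ASO2, 7.37 to 7.91 with OMA1 ASO1 and 7.51 to 7.77 with CTRL ASO. The treatments overlapped. Its log2 difference from CTRL ASO was 0.18 with OMA1 ASO2 (95% interval -0.20 to 0.56) and 0.01 with OMA1 ASO1 (95% interval -0.32 to 0.34), so a fall of the size seen for Me3 lay outside both intervals.

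**Figure D2:**
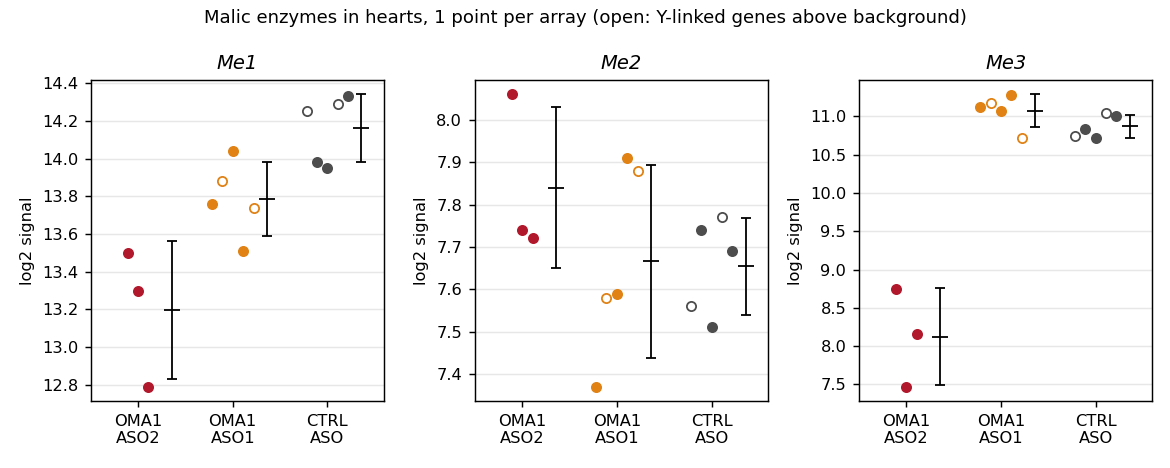
Log2 signals of the 3 malic enzyme genes, 1 point per array, with the mean and SD of each treatment beside the points. Open points are arrays with Y-linked genes above background. Me3 lies between 7.47 and 8.74 on the OMA1 ASO2 arrays and above 10.7 on all others, and Me1 is lowest with OMA1 ASO2.

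The promoters of Me3 and Me1, the malic enzyme genes that were lowest with OMA1 ASO2, are shown because the stress response that OMA1 starts acts through the transcription factor ATF4, which binds C/EBP-ATF response elements (CARE). The windows of 300 bases span the annotated RefSeq starts (GRCm38.p6) of Me3 (chr7:89632568-89632867, plus strand) and Me1 (chr9:86695865-86696164, minus strand, the upstream of 2 annotated starts). Capitals mark a match to the CARE letters TGATGNAA on either strand.
Me3: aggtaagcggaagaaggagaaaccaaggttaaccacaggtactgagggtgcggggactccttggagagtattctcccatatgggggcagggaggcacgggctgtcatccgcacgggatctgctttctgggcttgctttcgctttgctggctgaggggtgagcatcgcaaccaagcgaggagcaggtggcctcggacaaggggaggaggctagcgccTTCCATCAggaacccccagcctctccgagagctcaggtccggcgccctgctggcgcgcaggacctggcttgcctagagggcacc
Me1: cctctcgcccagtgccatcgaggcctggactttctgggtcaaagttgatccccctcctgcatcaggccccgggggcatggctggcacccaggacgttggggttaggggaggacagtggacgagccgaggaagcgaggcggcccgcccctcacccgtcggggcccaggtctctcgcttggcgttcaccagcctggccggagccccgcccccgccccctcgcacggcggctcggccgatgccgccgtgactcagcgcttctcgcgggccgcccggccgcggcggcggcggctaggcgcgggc
The Me3 window held 1 match, on the opposite strand, and the Me1 window none. Of the 27 members with a promoter in the RefSeq table, Me3 was the 1 with a match (3.70%), against 4.51% of 27025 genes with a promoter of the same length. The match is a description of the letters and not a binding site. Atf4 itself was lower with both oligonucleotides, with a log2 difference from CTRL ASO of -3.24 with OMA1 ASO2 (adjusted p = 7.08e-05 by limma) and -2.84 with OMA1 ASO1 (adjusted p = 5.47e-05 by limma). The part of ATF4 in the Me3 signal was not tested.

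The genes with the signal pattern most like that of Me3 were not members. Over the 13 arrays, among expressed clusters with a gene symbol, those that correlated best with Me3 were Mthfsl, Mthfs and Nars2, each with r = 0.94. Mthfs encodes the enzyme that turns 5-formyltetrahydrofolate back into the active folate pool, Mthfsl is a near copy of it whose signal cannot be separated from it with confidence, and Nars2 encodes the mitochondrial asparaginyl-tRNA synthetase. Mthfs had log2 signals of 5.39, 4.82 and 5.25 on the OMA1 ASO2 arrays, below background, against 6.98 to 7.79 with OMA1 ASO1 and 7.08 to 7.71 with CTRL ASO. Mthfsl was below background on the same 3 arrays, at 4.41 to 4.94, against 6.28 to 7.44 with OMA1 ASO1 and 6.91 to 7.19 with CTRL ASO, and no fold is given for either. Nars2 spanned 7.20 to 7.60 with OMA1 ASO2, 8.17 to 8.52 with OMA1 ASO1 and 7.88 to 8.53 with CTRL ASO. Among the members, Me1 (r = 0.75), Suclg2 (r = 0.74) and Ogdh (r = 0.74) came closest. Mthfsl, Mthfs and Nars2 were each lowest on the 3 OMA1 ASO2 arrays. As they were picked for their correlation with Me3, this follows from the choice and is no separate result. Mthfs and Mthfsl counted as expressed only through the OMA1 ASO1 and CTRL ASO arrays. The correlations are given as a description.

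For pyruvate entry and the PDH complex, no gene passed the test. Mpc1, a subunit of the pyruvate carrier, spanned 18.02 to 18.46 with OMA1 ASO2, 18.11 to 18.58 with OMA1 ASO1 and 17.90 to 18.44 with CTRL ASO. For the 5 PDH genes, the log2 differences from CTRL ASO ran between -0.36 and 0.29 with OMA1 ASO2 (4 of 5 below 0) and between 0.05 and 0.59 with OMA1 ASO1 (5 of 5 above 0). All 5 had a lower mean with OMA1 ASO2 than with OMA1 ASO1, by a median of -0.32.

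Dld encodes dihydrolipoamide dehydrogenase, the E3 subunit shared by PDH, 2-oxoglutarate dehydrogenase and other complexes. The log2 signals of Dld were 17.66, 17.65 and 17.33 with OMA1 ASO2, 17.71, 17.58, 17.75, 17.88 and 17.58 with OMA1 ASO1 and 17.27, 17.25, 17.24, 17.23 and 17.31 with CTRL ASO. All 8 OMA1 ASO arrays lay above all 5 CTRL ASO arrays, which had an SD of 0.03. Dld was the 1 member of 30 without overlap in the pooled comparison (3.33%, against 1.9% of all and 4.06% of expressed clusters). The pooled log2 difference was 0.38 (1.31-fold, 95% interval 0.12 to 0.65), and it did not pass over all clusters (adjusted p = 0.162 by limma).

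Pdhx encodes the E3-binding protein, which anchors DLD to the PDH core. Pdhx signals on the log2 scale were 10.24, 10.33 and 10.83 with OMA1 ASO2, 10.83, 11.02, 11.17, 11.71 and 10.84 with OMA1 ASO1 and 10.72, 10.80, 10.80, 10.32 and 9.99 with CTRL ASO. OMA1 ASO1 hearts were at the top, 1.51-fold above CTRL ASO (log2 difference 0.59, adjusted p = 0.249 by limma), and OMA1 ASO2 hearts overlapped CTRL ASO hearts (log2 difference -0.06, 95% interval -0.58 to 0.47). With OMA1 ASO1, Dld and Pdhx were the 2 members of 30 without overlap with CTRL ASO (6.67%, against 3.86% of all and 7.42% of expressed clusters).

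Pdhb, the gene of the E1 beta subunit, had its lowest signals with OMA1 ASO2. On the log2 scale it was at 17.47, 17.43 and 17.70 with OMA1 ASO2, 18.06, 17.95, 17.94, 18.43 and 17.86 with OMA1 ASO1 and 18.13, 17.88, 18.02, 17.74 and 17.72 with CTRL ASO. The OMA1 ASO2 arrays were the lowest, with the highest of them next to the lowest CTRL ASO array. OMA1 ASO2 and OMA1 ASO1 differed by -0.51 (95% interval -0.90 to -0.12, adjusted p = 0.467 by limma).

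Cs encodes citrate synthase, the entry step of the cycle. The activity of this enzyme is a common measure of mitochondrial content, but activity was not measured here. Cs signals were 16.60, 16.08 and 16.57 with OMA1 ASO2, 16.31, 16.69, 16.52, 16.87 and 16.55 with OMA1 ASO1 and 16.76, 16.76, 17.03, 16.89 and 16.84 with CTRL ASO. It was lower than all CTRL ASO arrays on 7 of 8 OMA1 ASO arrays, with a pooled log2 difference of -0.34 (1.26-fold lower, 95% interval -0.64 to -0.03, adjusted p = 0.335 by limma).

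The genes of succinyl-CoA synthetase, which makes ATP or GTP from succinyl-CoA, differed in pattern without passing the test. Sucla2, the ATP-forming beta subunit, had log2 signals of 6.85, 6.99 and 6.44 with OMA1 ASO2, 7.35, 7.53, 7.02, 7.27 and 6.96 with OMA1 ASO1 and 7.10, 6.62, 6.76, 6.71 and 6.49 with CTRL ASO. It was 1.40-fold higher with OMA1 ASO1 than with CTRL ASO (log2 difference 0.49, adjusted p = 0.238 by limma), and the treatments overlapped. Suclg2, the GTP-forming beta subunit, had log2 signals of 11.06, 10.74 and 11.74 with OMA1 ASO2, 12.01, 11.67, 11.79, 12.08 and 11.47 with OMA1 ASO1 and 11.74, 11.81, 12.19, 11.74 and 11.74 with CTRL ASO. It was 1.59-fold lower with OMA1 ASO2 than with CTRL ASO (log2 difference -0.66, 95% interval -1.15 to -0.18, adjusted p = 0.211 by limma), with 1 OMA1 ASO2 array at the level of the lowest CTRL ASO arrays. Suclg1, the shared alpha subunit, spanned 14.43 to 15.37 with OMA1 ASO2, 14.56 to 14.91 with OMA1 ASO1 and 14.38 to 15.16 with CTRL ASO.

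**Figure D3:**
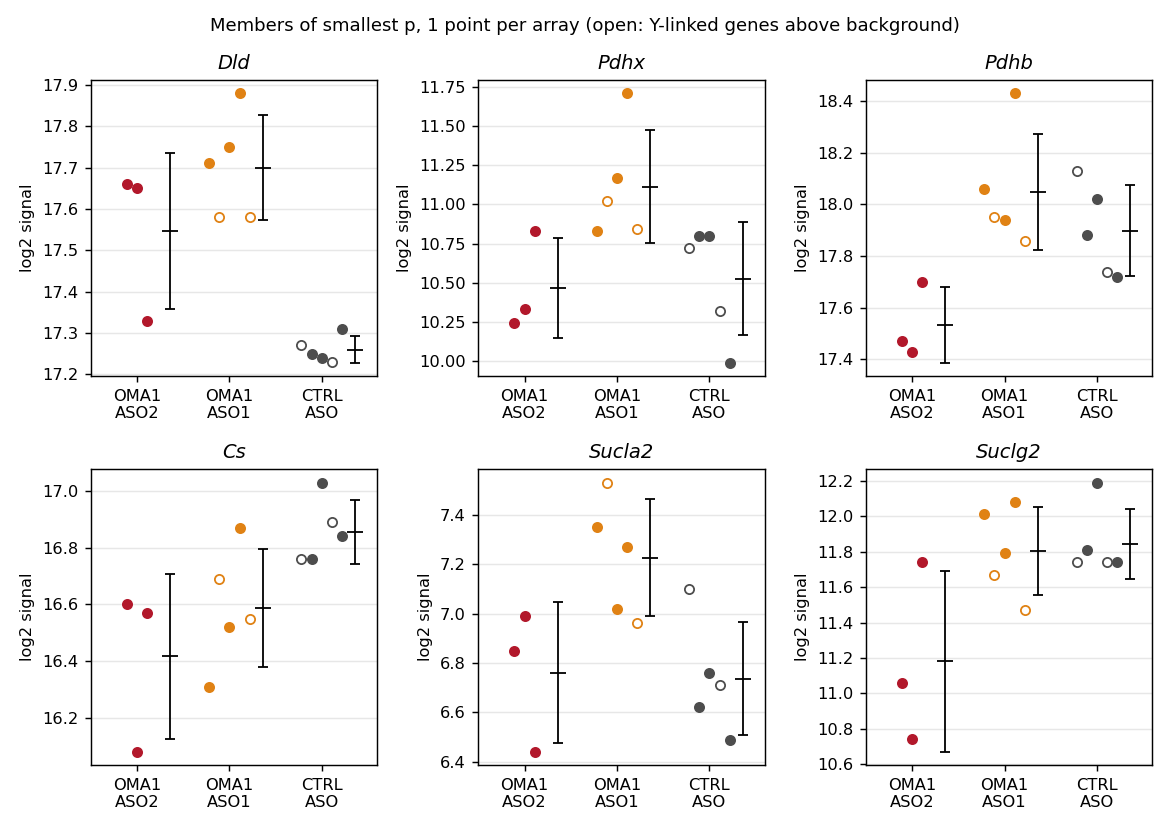
Log2 signals of Dld, Pdhx, Pdhb, Cs, Sucla2 and Suclg2, 1 point per array, with the mean and SD of each treatment beside the points (open points are arrays with Y-linked genes above background). Each panel has its own axis. Dld is above all CTRL ASO arrays in both OMA1 ASO groups, Pdhx and Sucla2 are highest with OMA1 ASO1, and Pdhb, Cs and Suclg2 are lowest with OMA1 ASO2.

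Against CTRL ASO, 6 of 30 members had no overlap with OMA1 ASO2 (against 9.06% of all and 14.4% of expressed clusters). Dld was higher, and Cs, Me1, Me3, Pdhb and Suclg2 were lower. Between OMA1 ASO2 and OMA1 ASO1, 5 of 30 had no overlap (16.7%, against 4.84% of all and 6.36% of expressed clusters), and all of them, Me1, Me3, Ogdh, Pdhb and Pdhx, were lower with OMA1 ASO2. For Suclg2 against CTRL ASO and for Pdhx between the oligonucleotides, the nearest arrays were apart by less than the second decimal. For Me1 between the oligonucleotides, the nearest arrays were at 13.50 and 13.51. Apart from Me3, which was named for its difference between the oligonucleotides, none of these passed the test over all clusters.

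The other cycle enzymes overlapped between treatments or differed by small amounts. The catalytic and regulatory subunits of the NAD-linked isocitrate dehydrogenase, Idh3a, Idh3b and Idh3g, had log2 differences from CTRL ASO of 0.12, 0.31 and 0.05 with OMA1 ASO2 and of 0.14, 0.10 and 0.06 with OMA1 ASO1. Ogdh, the E1 subunit of 2-oxoglutarate dehydrogenase, spanned 17.88 to 18.22 with OMA1 ASO2, 18.27 to 18.55 with OMA1 ASO1 and 18.20 to 18.52 with CTRL ASO. Its E2 subunit Dlst differed from CTRL ASO by -0.19 with OMA1 ASO2 and by 0.28 with OMA1 ASO1. Fumarase, Fh1, differed by 0.12 with OMA1 ASO2 and 0.33 with OMA1 ASO1. Mitochondrial malate dehydrogenase, Mdh2, differed by -0.51 with OMA1 ASO2 (adjusted p = 0.438 by limma) and -0.27 with OMA1 ASO1 (adjusted p = 0.703 by limma). Of the 11 cycle enzymes, 9 had the lower mean with OMA1 ASO2 than with OMA1 ASO1, at log2 differences between -0.63 and 0.21. Against CTRL ASO, 5 of the 11 were lower with OMA1 ASO2 and 3 with OMA1 ASO1.

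The cytosolic and NADP-linked relatives of cycle enzymes were 4 genes, none of which passed the test. Their pooled log2 differences from CTRL ASO were all above 0, between 0.05 and 0.28. Aco1, the cytosolic aconitase that doubles as an iron sensor, was at 10.09 to 10.52 with OMA1 ASO2, 10.37 to 10.83 with OMA1 ASO1 and 9.85 to 10.49 with CTRL ASO. Idh2, the mitochondrial NADP-linked isocitrate dehydrogenase and another source of NADPH in the matrix, differed from CTRL ASO by -0.05 with OMA1 ASO2 (95% interval -0.46 to 0.35) and by 0.11 with OMA1 ASO1 (95% interval -0.24 to 0.46). Idh1 varied most of these between mice, over 12.38 to 14.17 on OMA1 ASO1 arrays alone, and Mdh1 stayed within 17.84 to 18.38 on all 13 arrays.

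The kinases of PDH held the most variable member. Pdk4, whose expression rises with fasting and fatty acid use, had log2 signals of 13.94, 11.38 and 13.36 with OMA1 ASO2, 13.47, 16.21, 13.59, 13.69 and 11.48 with OMA1 ASO1 and 16.08, 16.54, 12.58, 13.61 and 13.86 with CTRL ASO. The 3 highest arrays came from CTRL ASO and OMA1 ASO1, and the treatments overlapped over most of a range of 5.15 log2 units. The log2 difference from CTRL ASO was -1.64 with OMA1 ASO2 (standard error 0.939, 95% interval -3.63 to 0.34) and -0.84 with OMA1 ASO1 (standard error 0.813, 95% interval -2.57 to 0.88). Both intervals include 0 and reach to a fall of several fold. Pdk1 differed from CTRL ASO by 0.22 with OMA1 ASO2 and 0.16 with OMA1 ASO1, and Pdk2 by -0.15 with OMA1 ASO2 and 0.02 with OMA1 ASO1. Pdk3 was below background on all 13 arrays and has no interpretable difference. The phosphatase genes Pdp1 and Pdp2 differed from CTRL ASO by -0.30 and 0.16 with OMA1 ASO2, and by -0.18 and 0.28 with OMA1 ASO1.

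**Figure D4:**
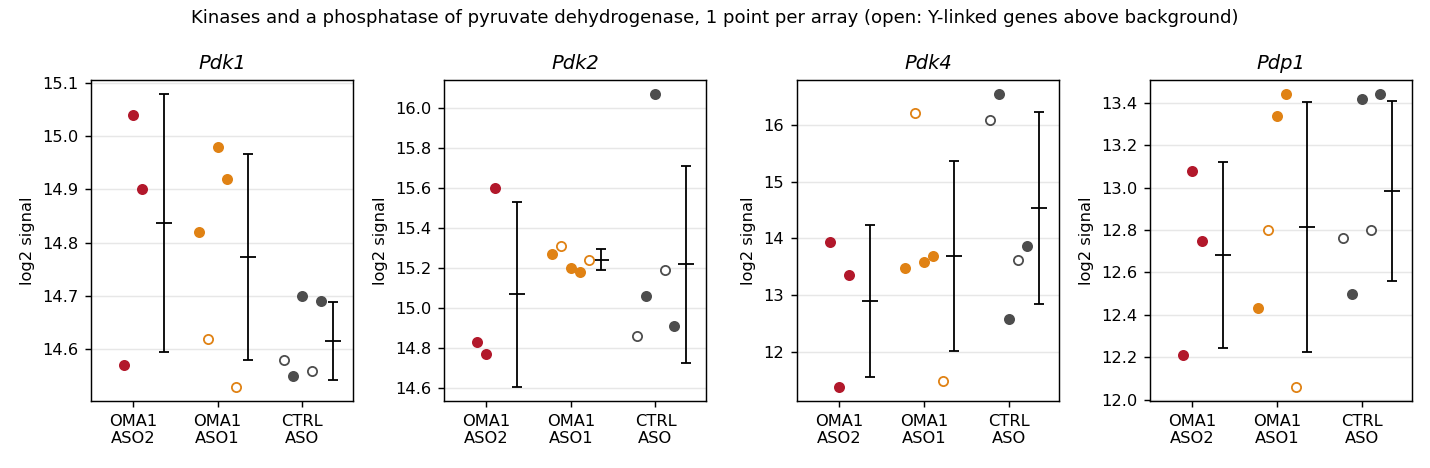
Log2 signals of 3 PDH kinase genes and the phosphatase gene Pdp1, 1 point per array, with the mean and SD of each treatment beside the points (open points are arrays with Y-linked genes above background). Each panel has its own axis. Pdk4 spans 11.38 to 16.54 across the 13 arrays, and its treatments overlap.

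**Figure D5:**
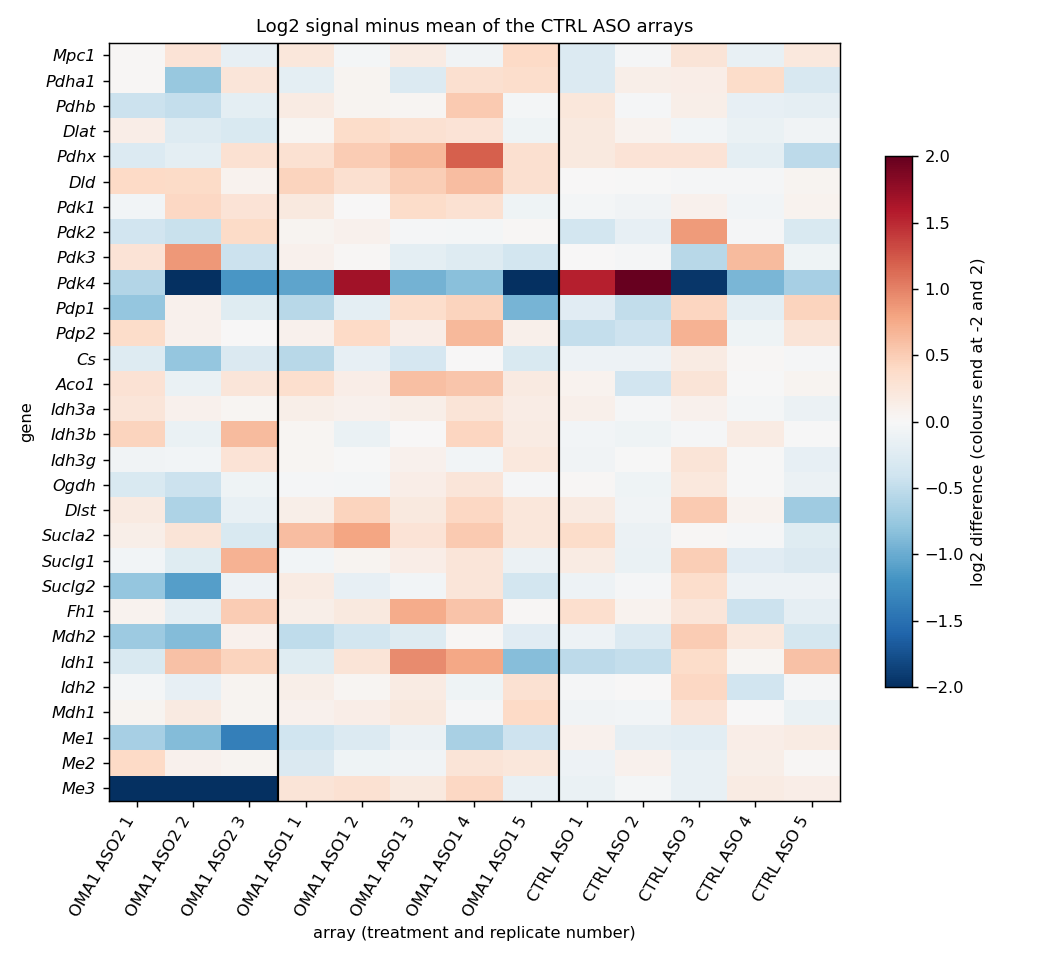
Log2 signal of each of the 30 genes (rows) on each of the 13 arrays (columns, grouped by treatment), minus the mean of the CTRL ASO arrays for that gene. Colours end at -2 and 2. Me3 is dark blue on the 3 OMA1 ASO2 arrays only, Me1 is blue on those arrays, and Pdk4 varies within every treatment.

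In lists of genes next to these in metabolism, most genes did not pass the test. Of 6 measured genes of succinate dehydrogenase and other cycle enzymes, 0 were called by limma in any comparison. Sdha, the flavoprotein subunit of succinate dehydrogenase, and Ogdhl, a relative of Ogdh, had the smallest p, with pooled log2 differences of 0.25 (adjusted p = 0.474) and 0.78 (adjusted p = 0.424) by limma. Ogdhl had log2 signals of 7.93, 7.65 and 8.77 with OMA1 ASO2, 8.08, 9.44, 8.92, 9.65 and 10.60 with OMA1 ASO1 and 8.44, 7.88, 7.79, 8.49 and 7.91 with CTRL ASO, and the treatments overlapped. Its log2 difference from CTRL ASO was 0.02 with OMA1 ASO2 (adjusted p = 0.996 by limma) and 1.24 with OMA1 ASO1 (2.35-fold, 95% interval 0.48 to 1.99, adjusted p = 0.105 by limma). Between OMA1 ASO2 and OMA1 ASO1 it was -1.22 (95% interval -2.09 to -0.34, unadjusted p = 0.00926, adjusted p = 0.417 by limma). Of 9 genes of the malate-aspartate shuttle and of carriers of cycle intermediates, 0 were called, and Slc25a11, the carrier that exchanges 2-oxoglutarate for malate, was at a pooled log2 difference of 0.15 (adjusted p = 0.712 by limma). Slc25a18, a glutamate carrier, was below background on all arrays. Of 8 measured genes for lipoate synthesis and related 2-oxoacid dehydrogenases, 0 were called, and Bckdha and Dbt, subunits of branched-chain ketoacid dehydrogenase, had pooled log2 differences of -0.41 (adjusted p = 0.485) and 0.36 (adjusted p = 0.593) by limma.

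Changes with both oligonucleotides were seen outside the cycle itself. Of 8 measured genes of anaplerosis and citrate export, 1 was lower and 0 were higher in the pooled comparison. The shares called there were 1.04% of all and 2.30% of expressed clusters. The lower gene was Gpt2, the mitochondrial alanine transaminase, which interconverts pyruvate and alanine while yielding 2-oxoglutarate. Its log2 signals were 7.33, 7.10 and 7.54 with OMA1 ASO2, 7.45, 7.35, 7.11, 7.81 and 7.27 with OMA1 ASO1 and 8.79, 9.15, 8.97, 9.35 and 8.84 with CTRL ASO. All 8 OMA1 ASO arrays lay below all CTRL ASO arrays, 3.24-fold lower with OMA1 ASO2 (adjusted p = 0.00012 by limma) and 3.08-fold lower with OMA1 ASO1 (adjusted p = 3.17e-05 by limma). OMA1 ASO2 and OMA1 ASO1 differed by -0.07 for Gpt2 (adjusted p = 0.964 by limma).

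Of 7 measured genes in a list around NADPH supply, 2 were lower and 1 was higher in the pooled comparison. In that comparison 1.04% of all and 2.30% of expressed clusters were called. The list was chosen with earlier results known and holds Mthfd2 and Aldh1l2, so the count is not a result about NADPH supply. Not every gene of this list makes NADPH itself, and which cofactor each enzyme used was not measured. Mthfd2 and Aldh1l2, mitochondrial enzymes of folate metabolism, fell by 5.41 and 3.49 on the log2 scale (adjusted p = 3.31e-07 and 7.87e-06 by limma), with Aldh1l2 above background on 4 of 8 OMA1 ASO arrays. Nadk2, the mitochondrial NAD kinase that supplies NADP, was at 12.94 to 13.16 with OMA1 ASO2, 13.02 to 13.28 with OMA1 ASO1 and 12.21 to 12.70 with CTRL ASO. It rose 1.59-fold in the pooled comparison (log2 difference 0.67, adjusted p = 0.00779 by limma), and was at 0.63 (adjusted p = 0.0812) and 0.69 (adjusted p = 0.0189) with OMA1 ASO2 and OMA1 ASO1 alone. None of the genes of these lists was called between OMA1 ASO2 and OMA1 ASO1.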

How the data were processed

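Hearts of 13 mice were profiled on Clariom S Mouse arrays. The authors deposited log2 signals, made with Transcriptome Analysis Console by gene-level SST-RMA, which corrects background, normalizes arrays by quantiles and summarizes probes, so that levels of different genes are not comparable. Their annotation's genome build was not given in the sources used.

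The 6640 control probe sets were left out and 22206 transcript clusters were tested without a filter. The pooled comparison (8 OMA1 ASO arrays against 5) and the model of 3 treatment means used limma 3.58.1 (R 4.3.3), with Benjamini-Hochberg adjustment over all clusters and a call at an adjusted p under 0.01. Background on an array was taken as its brightest among 23 background probe set groups. The scripts were checked on simulated data. The labels name separate mice, and the number of arrays limits the precision. All 30 measured members were matched to RefSeq by Entrez ID.

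The members and lists were chosen with earlier results of these data known. The difference of Me3 between the oligonucleotides was named together with the members, so its p-values describe a gene already picked. Every array is given for members called in any comparison and for the 3 of smallest p in each, and Pdk4 was added after its values were seen. Of each list, the genes called, or otherwise the 2 of smallest p in the pooled comparison, are named. Slc25a10, Pccb and Lipt1 were added for their p between the oligonucleotides, after their values were seen. The alternatives varied the moderation, normalization, filter, array weights, arrays fitted and left out, replicate block, Y-linked covariate, weight of the oligonucleotides, cluster per gene and threshold. The fit on arrays without Y-linked signal was chosen after seeing the data.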

Additional observations from a re-analysis of the deposited data

Results flagged for a closer look

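The Me3 signal differed between the oligonucleotides. The log2 difference between OMA1 ASO2 and OMA1 ASO1 was -2.95, tested directly in the model of 3 treatments (adjusted p = 2.2e-05 by limma). Me3 was named for this difference when the members were chosen, so the p-value is not independent support.

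In groups of 5 arrays, 3 of 60 sets of values held an array far from the others, where chance gives about 1 in 20. Pdk2, a PDH kinase, was at 16.07 on CTRL ASO replicate 3, against 14.86 to 15.19 on the other CTRL ASO arrays. Suclg2 was at 12.19 on the same array, against 11.74 to 11.81. Idh3b, a subunit of isocitrate dehydrogenase, was at 15.61 on CTRL ASO replicate 4, against 15.36 to 15.43.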

How the results depend on the processing

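The counts of members called were 0 (pooled), 0 (OMA1 ASO1), 1 (OMA1 ASO2) and 1 (OMA1 ASO2 against OMA1 ASO1) under all alternatives but 3. With equal weight for both oligonucleotides the pooled count was 1 (Me3). Against CTRL ASO, the OMA1 ASO2 count was 2 (Me1 and Me3) with a threshold of 0.05 and 2 with a mean-variance trend and robust fitting, where Me1 had an adjusted p of 0.00603 by limma. Over 23 alternatives, leaving out each array in turn among them, the log2 difference of Me3 between OMA1 ASO2 and OMA1 ASO1 ranged between -3.25 and -2.62 (adjusted p 2.62e-06 to 0.00446), and that of Me1 between OMA1 ASO2 and CTRL ASO between -1.11 and -0.76 (adjusted p 0.00603 to 0.141). The count of members with a lower mean in OMA1 ASO2 than in OMA1 ASO1 hearts was 22 to 26. Under these alternatives no difference of a member named by rule changed sign. Arrays with the same replicate number did not deviate together (r between -0.11 and 0.18), and the replicate block left the counts at 0, 0, 1 and 1 and Me3 at -2.92 between the oligonucleotides. With 3 OMA1 ASO2 hearts, the 95% interval against CTRL ASO stayed within 1 log2 unit for 24 of 30 members.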

Other observations

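Among the 23 clusters called between OMA1 ASO2 and OMA1 ASO1 was Esrrg, which encodes ERR gamma, a nuclear receptor known for activating genes of oxidative metabolism in heart, named here after its values were seen. Its log2 difference was -2.01 between OMA1 ASO2 and OMA1 ASO1 (adjusted p = 0.0015 by limma), -2.16 between OMA1 ASO2 and CTRL ASO (adjusted p = 0.000128 by limma) and -0.15 between OMA1 ASO1 and CTRL ASO (adjusted p = 0.875 by limma). The part of Esrrg in the signals of the members was not tested.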
